A study of Mus musculus with 17 samples.

Results

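Transferrin and 9 other genes that move iron through the cell were read in small pools of retinal pigment epithelium (RPE), the pigmented cell layer behind the photoreceptors. The 10 members were chosen by symbol from the 22253 genes of the count table: Trf, Tfrc, Fth1, Ftl1, Slc40a1, Slc11a2, Cp, Heph, Steap3 and Ireb2. All animals were Serpine3GFP/+ mice at 2 months of age on a C57BL6/J background. In them one Serpine3 allele carries a GFP reporter just behind the start codon, and the control cells carry the reporter allele too. The paper states that the study as a whole used male and female mice, and does not give the sex of these animals. Single RPE cells were picked under a fluorescence microscope into 3 groups: GFP+ cells from the periphery (6 libraries), GFP-negative cells from the periphery (ctrl periphery, 5 libraries) and GFP-negative cells from the center (ctrl center, 6 libraries). Each of the 17 SMART-Seq libraries came from 10 to 15 hand-picked cells per the labels, and the study's methods give a lower range. The animals are numbered here as mice 1 to 7, of which mice 1, 2, 4, 5 and 7 gave all 3 groups, and mouse 1 carries a pair of animal numbers in the labels. The labels do not name sex or litter for a library.

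Iron travels in blood and in the eye bound to transferrin, the product of Trf, and enters cells when the loaded protein is taken up by the transferrin receptor, Tfrc. In the endosome the ferric iron is reduced by Steap3 and carried into the cytosol by Slc11a2 (DMT1), where it is used or stored in ferritin, a shell of heavy (Fth1) and light (Ftl1) chains. The exporter ferroportin, Slc40a1, releases iron with the help of the copper-containing ferroxidases ceruloplasmin (Cp) and hephaestin (Heph). When iron is scarce, the iron regulatory proteins, 1 of them encoded by Ireb2, bind a short RNA hairpin called the iron responsive element; bound in a 5′ UTR it holds back translation, and bound in the 3′ UTR of Tfrc it protects the message. The RPE stands between the choroidal blood and the retina and handles iron from both sides.

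This hairpin is the control sequence known from the receptor, the ferritin chains and the exporter, so the matches found in the members are shown before their levels. The letters searched were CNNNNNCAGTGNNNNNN, with the 5 bases on either side of the 6-base loop able to pair (G-U pairs allowed), on the sense strand of the spliced coding transcripts of GENCODE M21 on GRCm38. There were 7 matches, in 4 of the 10 members. The capitals mark the unpaired C and the loop, and each line runs 5′ to 3′ along the message.
Tfrc, 3′ UTR, match a: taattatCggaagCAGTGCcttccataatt
Tfrc, 3′ UTR, match b: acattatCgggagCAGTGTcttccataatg
Tfrc, 3′ UTR, match c: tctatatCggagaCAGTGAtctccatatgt
Tfrc, 3′ UTR, match d: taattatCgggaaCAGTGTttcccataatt
Fth1, 5′ UTR: tttcctgCttcaaCAGTGCttgaacggaac
Ftl1, 5′ UTR: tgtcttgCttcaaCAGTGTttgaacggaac
Slc40a1, 5′ UTR: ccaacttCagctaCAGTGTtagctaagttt

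The Tfrc matches lie on the plus strand at chr16:32631218-32631247, chr16:32631597-32631626, chr16:32631662-32631691 and chr16:32631709-32631738. The Fth1 match lies at chr19:9982731-9982760 (plus strand), the Ftl1 match at chr7:45459779-45459808 (minus strand) and the Slc40a1 match at chr1:45925465-45925494 (minus strand). The 4 Tfrc matches stand within 521 bases of 1 of the 3 coding transcripts searched, and share 18 to 25 of 30 bases with each other. The Fth1 and Ftl1 windows share 27 of 30 bases. The match was in 4 of 5 coding transcripts of Fth1, in 1 of 2 of Ftl1 and in 1 of 4 of Slc40a1. Over all genes, 31 of 20597 (0.151%) had a match in a 5′ UTR and 129 of 20979 (0.615%) in a 3′ UTR, against 0.102% and 0.405% when the same regions were read on the other strand. A match describes letters, and no protein binding was measured. Trf, Slc11a2, Cp, Heph, Steap3 and Ireb2 had no match in these letters. The search asked for 5 unbroken pairs and this loop, so a hairpin of another form would be missed. The lack of a match therefore does not show that a gene has no such element.

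The members spanned the whole range of expression. Levels are given as CPM, counts brought to a common library total with TMM scaling over the 17 libraries, and between genes only as CPM per kb of exon. In ctrl center the mean level per kb was 5435 ± 3237 for Trf (SD, n = 6), 2613 ± 383 for Ftl1 and 534 ± 225 for Fth1. The next gene in that order was Tfrc, at 11.01 ± 6.67 per kb, and Slc40a1 was last at 0. In GFP+ the same 3 genes led, with 10505 ± 5295 for Trf, 2261 ± 238 for Ftl1 and 713 ± 239 for Fth1 (SD, n = 6). In ctrl periphery they read 7812 ± 5259, 2074 ± 306 and 496 ± 266 per kb (SD, n = 5). So each group had the same 3 leaders, transferrin and both ferritin chains, and Slc40a1 stood last in each. Behind the leaders the order by mean differed between groups: Cp was in place 5 of 10 in GFP+, place 8 in ctrl periphery and place 9 in ctrl center. The GFP+ mean of Cp was 4.44 per kb, against 4.42 for Ireb2, with the library of mouse 3 at 18.3. By the median Cp read 2.29 per kb in GFP+, below Ireb2 at 4.81 and Slc11a2 at 2.78.

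**Figure D1:**
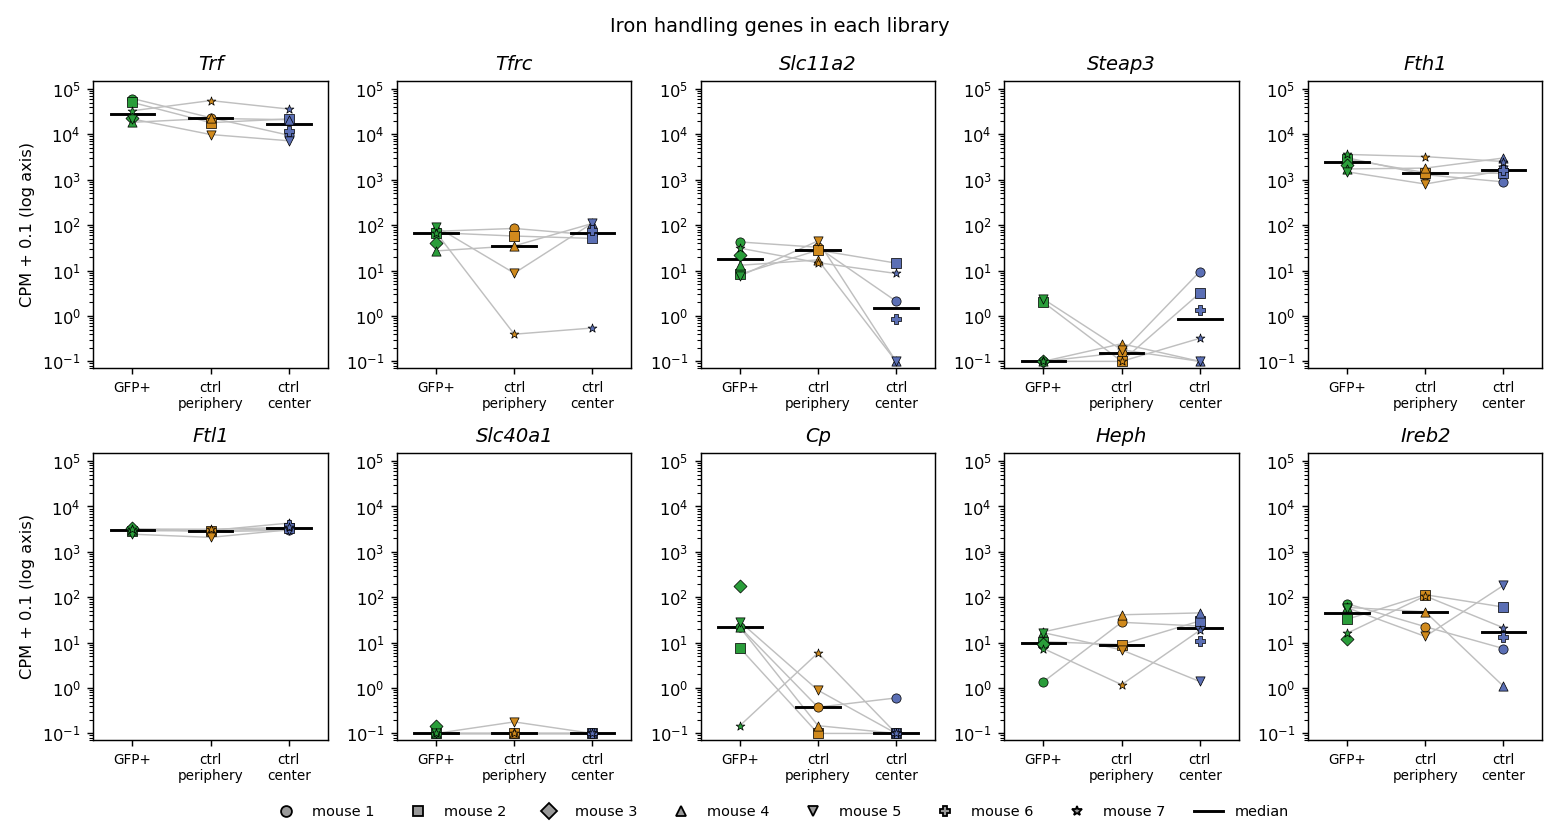
CPM of each member by library (log axis, 0.1 added so that libraries at 0 can be drawn); points are libraries, shapes are mice, grey lines join libraries of the same mouse and black bars are group medians. Trf, Fth1 and Ftl1 are high in all 17 libraries, Cp is at 7.55 CPM or more in 5 of 6 GFP+ libraries and at most 0.505 in ctrl center, and Slc40a1 never exceeds 1 count.

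No member was called between groups in the edgeR quasi-likelihood test, which does not show that the members were unchanged. The call needed an absolute log2 fold change over 1 and a p under 0.01 after Benjamini-Hochberg adjustment across all tested genes. In GFP+ against ctrl center 7 of 10 members passed the filter on low counts and 0 were called, where 0.0431% of the 9286 genes tested were. In GFP+ against ctrl periphery it was 0 of 8 members (0.0396% of 10102 genes), and in ctrl periphery against ctrl center 0 of 7 (0% of 9535 genes). At an unadjusted p under 0.05 there were 1 member (Trf), 1 member (Cp) and 0 members, against 5.8%, 5.58% and 2.7% of the genes tested. Cp passed the filter in GFP+ against ctrl periphery through its GFP+ libraries. DESeq2, run as another tool without that filter, called 1, 0 and 0 members, where it called 1.7%, 0.442% and 0.258% of its genes; the gene called was Cp in GFP+ against ctrl center. The median log2 fold change over the members tested was -0.23, 0.31 and -0.17 in the 3 comparisons, beside 0.00, 0.01 and 0.01 over all genes tested. The first 2 comparisons share the GFP+ libraries and the first and last share ctrl center, so their values are not independent.

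**Figure D2:**
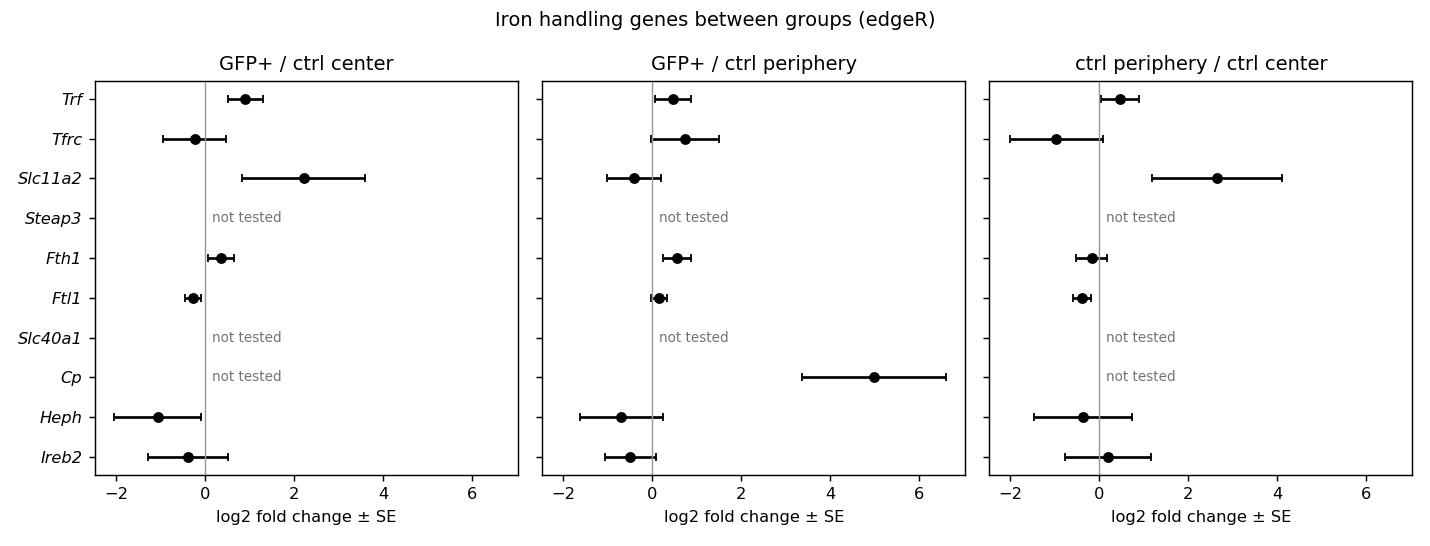
Log2 fold change ± SE of each member in the 3 comparisons (edgeR, libraries of the 2 groups only); members under the filter on low counts are written as not tested. Slc11a2 is at 2.22 and 2.65 against ctrl center, Cp is at 4.99 in GFP+ against ctrl periphery, and Ftl1 lies within 0.40 of 0 in each panel.

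Trf (chr9:103204001-103230444, minus strand) was among the most abundant genes of every library. It took 2.27 to 7.09% of all counts in GFP+ (median 3.20%), 0.933 to 4.91% in ctrl periphery (median 2.38%) and 0.396 to 2.63% in ctrl center (median 1.29%), and it ranked between the first and the 24th gene of its library. On the CPM scale GFP+ libraries read from 18479 to 61768 with a median of 28253. The ctrl periphery libraries of mice 1, 2, 4, 5 and 7 read 23352, 18178, 22521, 9945 and 55690, and ctrl center read from 7241 to 36224 with a median of 16629. The highest values were the GFP+ libraries of mice 1 and 2 and the ctrl periphery library of mouse 7, and the 3 groups overlapped. The log2 fold change of GFP+ against ctrl center was 0.90 ± 0.39 (SE; unadjusted p = 0.0324, adjusted p = 0.726 in edgeR), with GFP+ above ctrl center in 3 of 5 mice. Against ctrl periphery it was 0.47 ± 0.41, and ctrl periphery against ctrl center gave 0.48 ± 0.43; neither was called. Fewer cells expressing a gene and less RNA per cell cannot be told apart in pooled cells.

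The transferrin values moved beside the mitochondrial share of the libraries. The 13 mitochondrially encoded genes held 0.710 to 17.2% of counts in GFP+, 12.5 to 30.4% in ctrl periphery and 13.7 to 47.3% in ctrl center. Spearman's rho of this share over the 17 libraries was -0.54 for Trf, -0.59 for Cp, -0.45 for Slc11a2 and -0.27 for Fth1, all from the same libraries. For the other members it lay between -0.10 (Ireb2) and 0.11 (Ftl1). The median share was 8.57% in GFP+, 17.7% in ctrl periphery and 27.3% in ctrl center, so rho over all libraries also carries the difference between groups. With the mitochondrially encoded genes taken out before scaling, the Trf log2 fold change of GFP+ against ctrl center was 0.91 (adjusted p = 0.633 in edgeR). The animal numbers fall in 2 runs, mice 1 to 3 and mice 4 to 7, which the labels do not call a batch. Mean Trf CPM in GFP+ was 2.87 times that in ctrl center in the first run (3 and 2 libraries) and 1.28 times in the second (3 and 4 libraries). In the edgeR interaction test between group and run, 0 of 9286 genes had an adjusted p under 0.05 and 372 had an unadjusted p under 0.05, among them Fth1 (difference of log2 fold changes -1.17 ± 0.53 SE, unadjusted p = 0.0446).

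Tfrc, the receptor that takes up loaded transferrin, was above 20 CPM in 14 of the 17 libraries. It read 27.0 to 92.6 CPM in GFP+ (median 68.6), and 84.7, 57.6, 34.9, 8.66 and 0.297 in the ctrl periphery libraries of mice 1, 2, 4, 5 and 7. In ctrl center it read 0.443 to 111 (median 68.6). Both control libraries of mouse 7 held 3 and 4 counts of Tfrc, while the GFP+ library of the same mouse held 1443. The log2 fold change was -0.23 ± 0.70 for GFP+ against ctrl center, 0.74 ± 0.77 for GFP+ against ctrl periphery and -0.96 ± 1.04 for ctrl periphery against ctrl center (SE), none of them called.

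Slc11a2, which carries iron out of the endosome, was the 1 member with a comparison in which the libraries of the groups did not overlap, ctrl periphery against ctrl center. The ctrl periphery libraries of mice 1, 2, 4, 5 and 7 read 32.5, 28.03, 17.1, 45.0 and 14.8 CPM. Ctrl center read 0 to 14.5 CPM (median 1.38), with 2 of its 6 libraries at 0 counts, and GFP+ read 7.46 to 42.6 CPM (median 17.7). The ctrl center libraries at 0, of mice 4 and 5, had 6681 and 5392 genes with at least 10 counts. That of mouse 7 had 6430 such genes and held 77 Slc11a2 counts. Every ctrl periphery library thus stood above every ctrl center library, by 14.8 against 14.5 CPM at the closest pair. Such a separation was seen in 0.64% of the genes tested upward and in 0.115% downward in that comparison. The log2 fold change was 2.65 ± 1.46 (SE; unadjusted p = 0.0874, adjusted p = 1.00 in edgeR; 0.598 in DESeq2). GFP+ against ctrl center gave 2.22 ± 1.38 with GFP+ higher in 4 of 5 mice, and their ranges overlapped. GFP+ against ctrl periphery gave -0.41 ± 0.60. The shares of all genes that separated were 0.862% above and 0.269% below in GFP+ against ctrl center, and 0.624% above and 0.663% below in GFP+ against ctrl periphery, where no member did. Slc11a2 (chr15:100387898-100425072, minus strand) and Gm5475 on the other strand share 402 exon bases, and the strand setting of the counting is not given in the sources used here.

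Steap3, the endosomal ferrireductase, exceeded 3 counts in 5 of the 17 libraries and was not tested in any comparison. The GFP+ libraries of mice 2 and 5 held 40 and 32 counts, the other GFP+ libraries 0, and ctrl periphery at most 3. Ctrl center held 111 counts in mouse 1, 56 in mouse 2 and 17 in mouse 6, with 2 libraries at 0. Where no count was seen the level could still reach 3 counts, or 0.116 to 0.554 CPM in these libraries, a limit that covers counting error only.

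Ftl1, the light ferritin chain, was the steadiest member in each group by its coefficient of variation. It read 2450 to 3339 CPM in GFP+ (median 3109), 2085 to 3157 in ctrl periphery (median 2896) and 2980 to 4300 in ctrl center (median 3374). Its highest library was 1.36, 1.51 and 1.44 times its lowest in the 3 groups. Its coefficient of variation over all 17 libraries was 16.02%, against 61.5% for Trf and 97.0% for Ireb2. The log2 fold change was -0.27 ± 0.18 for GFP+ against ctrl center, 0.15 ± 0.17 for GFP+ against ctrl periphery and -0.40 ± 0.20 for ctrl periphery against ctrl center (SE; unadjusted p = 0.0662 for the last, adjusted p = 1.00 in edgeR). In 5 of 5 mice the ctrl periphery library was below the ctrl center library, and in 5 of 5 the GFP+ library was above the ctrl periphery library. The latter was by ratios of 1.16, 1.01, 1.03, 1.17 and 1.01 in mice 1, 2, 4, 5 and 7. Ranges overlapped in both comparisons, and the share of all genes with such agreement was not counted. A spliced copy, Ftl1-ps1 on chromosome 13, was counted at 3.80 to 7.04 per 100 Ftl1 counts in each library. Reads that fit both could be split between them, so the Ftl1 level is uncertain by about that much.

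Fth1, the heavy chain with the ferroxidase site, read 1499 to 3623 CPM in GFP+ (median 2464), and 1296, 1443, 1810, 806 and 3241 in the ctrl periphery libraries of mice 1, 2, 4, 5 and 7. In ctrl center it read 901 to 3022 (median 1641). The groups overlapped, and the log2 fold change was 0.36 ± 0.29 for GFP+ against ctrl center, 0.56 ± 0.31 for GFP+ against ctrl periphery and -0.17 ± 0.35 for ctrl periphery against ctrl center (SE). None was called. Set against the light chain in the same library, Fth1 gave 0.571 to 1.14 counts per Ftl1 count in GFP+ (median 0.783), 0.387 to 1.03 in ctrl periphery (median 0.498) and 0.302 to 0.733 in ctrl center (median 0.476). The ratio was higher in GFP+ than in ctrl center in 4 of 5 mice and higher than in ctrl periphery in 4 of 5, mouse 4 being the exception in both. The ratio was formed after the values were seen, so it is given without a test, and the ranges overlapped.

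**Figure D3:**
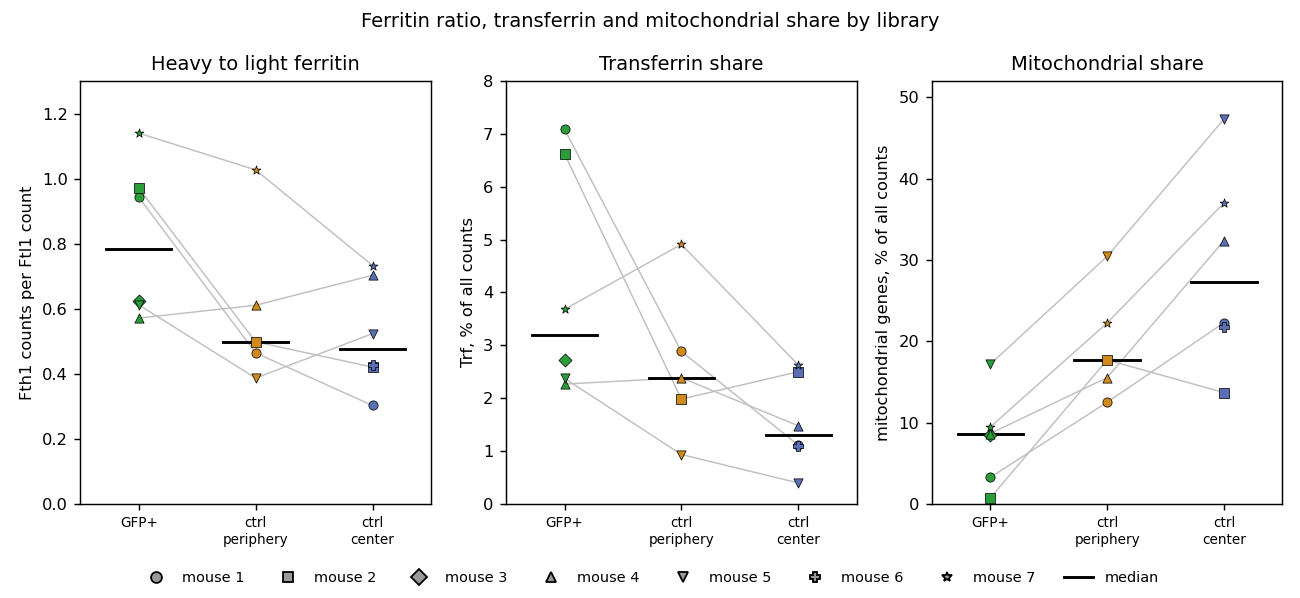
Fth1 counts per Ftl1 count (left), the share of all counts in Trf (middle) and the share in the mitochondrial genes (right), by library; shapes are mice, grey lines join libraries of the same mouse and black bars are medians. The median ratio is 0.783 in GFP+, 0.498 in ctrl periphery and 0.476 in ctrl center, and the median Trf share is 3.20, 2.38 and 1.29%.

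Cp, the ferroxidase that turns exported iron into the form transferrin binds, was read well in 5 of 6 GFP+ libraries and in few counts elsewhere. In GFP+ the libraries of mice 1, 2, 3, 4, 5 and 7 held 567, 159, 3933, 288, 411 and 1 counts, or 22.001, 7.55, 175, 21.7, 28.9 and 0.0477 CPM. In ctrl periphery those of mice 1, 2, 4, 5 and 7 held 5, 0, 1, 10 and 59 counts. In ctrl center there were 6 counts in mouse 1 and 0 in each of the other 5 libraries. So 5 of 6 GFP+ libraries were above all 11 control libraries, and the GFP+ library of mouse 7 was below some of both control groups. Mouse 7 was also the mouse with the most Cp in ctrl periphery. The library of mouse 3 held 73.4% of the Cp counts of GFP+, and the GFP+ mean of 42.5 CPM was 16.1 CPM without it.

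Against ctrl periphery the Cp log2 fold change was 4.99 ± 1.61 (SE; unadjusted p = 0.00707, adjusted p = 0.629 in edgeR; adjusted p = 0.0437 in DESeq2), higher in 4 of 5 mice. It was 3.58 without the GFP+ library of mouse 3 (adjusted p = 0.889) and 7.26 without the ctrl periphery library of mouse 7 (adjusted p = 0.286). In this comparison the edgeR filter asked for about 10 counts in 5 libraries, and Cp met that through its GFP+ libraries. Cp was thus tested because it was high in GFP+, and its edgeR p is not separate support for that difference. Against ctrl center Cp did not enter the edgeR fit, because the filter asked for about 10 counts in 6 libraries and 5 held them. With no filter, an alternative to the fixed processing, the log2 fold change was 8.82 and the adjusted p was 0.0146, above the limit of 0.01. The call depended on the setting and the libraries. Log2 fold change and adjusted p passed the limits in 3 of 17 alternatives: DESeq2 gave 8.77 and 5.64e-05, edgeR with the animal-number run as a term 9.09 and 4.21e-06, and edgeR without the ctrl center library of mouse 1 gave 12.4 and 0.00731. Others did not: the replicate block by mouse gave 8.45 and 0.0407, and the edgeR fit without the GFP+ library of mouse 3 gave 7.44 and 0.196. Since 6 counts in 1 library carry the ctrl center level, the size of this fold is poorly fixed. Cp (chr3:19957054-20009145, plus strand) and Hps3 on the other strand share 108 exon bases.

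Heph, the membrane ferroxidase, read 1.28 to 17.2 CPM in GFP+ (median 9.93), and 27.97, 8.96, 41.0, 6.83 and 1.09 in the ctrl periphery libraries of mice 1, 2, 4, 5 and 7. In ctrl center it read 1.29 to 45.1 (median 20.8). GFP+ was below ctrl center in 4 of 5 mice, the log2 fold change was -1.07 ± 0.98 (SE), and the groups overlapped. The other comparisons gave -0.69 ± 0.93 and -0.37 ± 1.10. Slc40a1, the only known cellular iron exporter, had 2 counts in all 17 libraries together, 1 in the GFP+ library of mouse 3 and 1 in the ctrl periphery library of mouse 5. Its level was below what these libraries can show in each group, and no fold is given.

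Ireb2 (chr9:54863789-54912530), the iron sensor whose protein binds hairpins of the kind shown above, had the highest coefficient of variation over all 17 libraries of the 5 members that were above 3 counts in every library; within ctrl periphery Heph varied more (97.4% against 77.0%). It read 12.2 to 71.9 CPM in GFP+ (median 45.6), and 22.3, 114, 47.8, 13.6 and 106 in the ctrl periphery libraries of mice 1, 2, 4, 5 and 7. In ctrl center it read 0.998 to 182 (median 17.2), with its lowest and highest libraries in mice 4 and 5. The log2 fold changes of -0.38 ± 0.90, -0.49 ± 0.57 and 0.19 ± 0.97 (SE) were smaller than their errors, and leaving out single libraries turned the sign of the first and the last. For all 10 members the groups were put in order of mean CPM, and in 20 of 20 pairs of neighbours in that order the ranges overlapped.

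In 5 lists of other iron and heme genes edgeR called 0 of 36, 0 of 37 and 0 of 36 tested genes in GFP+ against ctrl center, GFP+ against ctrl periphery and ctrl periphery against ctrl center. Over all genes tested it called 0.0431%, 0.0396% and 0%. At an unadjusted p under 0.05 in edgeR there were 3, 3 and 1, against 5.8%, 5.58% and 2.7% of all genes tested. DESeq2 called 0, 0 and 1 (Cpox), where it called 1.7%, 0.442% and 0.258% of its genes. Of 14 iron uptake and reduction genes, 7, 8 and 7 were tested in the 3 comparisons in that order, with median log2 fold changes of 0.48, -0.05 and 0.18. Their extremes in the first comparison were Mcoln1, a lysosomal iron channel (1.23 ± 1.19 SE), Lrp2, the megalin receptor (0.71 ± 0.56), Hfe (-0.90 ± 1.07) and Steap2, a metalloreductase (-1.45 ± 0.71, unadjusted p = 0.0567). Steap2 was also among the lowest in the other comparisons, at -0.89 ± 0.83 and -0.51 ± 0.86, neither called. Of the 8 genes around hepcidin, 2 were tested, Bmp6 (-1.16 ± 0.91 in GFP+ against ctrl center) and Neo1, a hemojuvelin receptor (0.90 ± 0.67).

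Genes that load, degrade or sense ferritin iron went both ways. Of 6, 5 were tested, with median log2 fold changes of 0.06, 0.00 and 0.20. Aco1, which encodes the other iron regulatory protein, was highest in GFP+ and in ctrl periphery against ctrl center (0.75 ± 0.46 and 0.76 ± 0.54 SE). Pcbp2, an iron chaperone, was lowest in both GFP+ comparisons (-0.23 ± 0.29 and -0.49 ± 0.27). Ncoa4, the receptor that takes ferritin to the lysosome, was level in GFP+ against ctrl periphery (0.00 ± 0.38).

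Of 11 genes of heme breakdown and transport, 8 were tested, with medians of -0.13, 0.03 and 0.01. Slc48a1, which moves heme out of the lysosome, had a mean of 205 CPM in GFP+ against 117 in ctrl center (0.77 ± 0.31 SE, unadjusted p = 0.0214, not called). Hmox1, the inducible heme oxygenase, was at 9.53, 3.49 and 21.3 mean CPM in GFP+, ctrl periphery and ctrl center, with 2, 4 and 1 libraries at 0. Of 15 heme synthesis and mitochondrial iron genes, 14 were tested, with medians of 0.14, 0.35 and 0.05. Cpox, a late enzyme of heme synthesis, was higher in each ctrl periphery library than in each ctrl center library (mean 13.7 against 0.513 CPM, 4.66 ± 1.59 SE, unadjusted p = 0.00931, adjusted p = 1.00 in edgeR; adjusted p = 0.00410 in DESeq2), and read 3.18 ± 1.42 in GFP+ against ctrl center. Such an upward separation was seen in 0.64% of the genes tested in ctrl periphery against ctrl center. Alad, the second enzyme of heme synthesis, read 0.73 ± 0.29 and 0.48 ± 0.19 in the GFP+ comparisons (unadjusted p = 0.0200 and 0.0197 in edgeR). Its Spearman's rho with the mitochondrial share was -0.90 over the 17 libraries, and the part of that share in the Alad values was not tested. Neither Alad value passed the adjusted limit in edgeR.

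**Figure D4:**
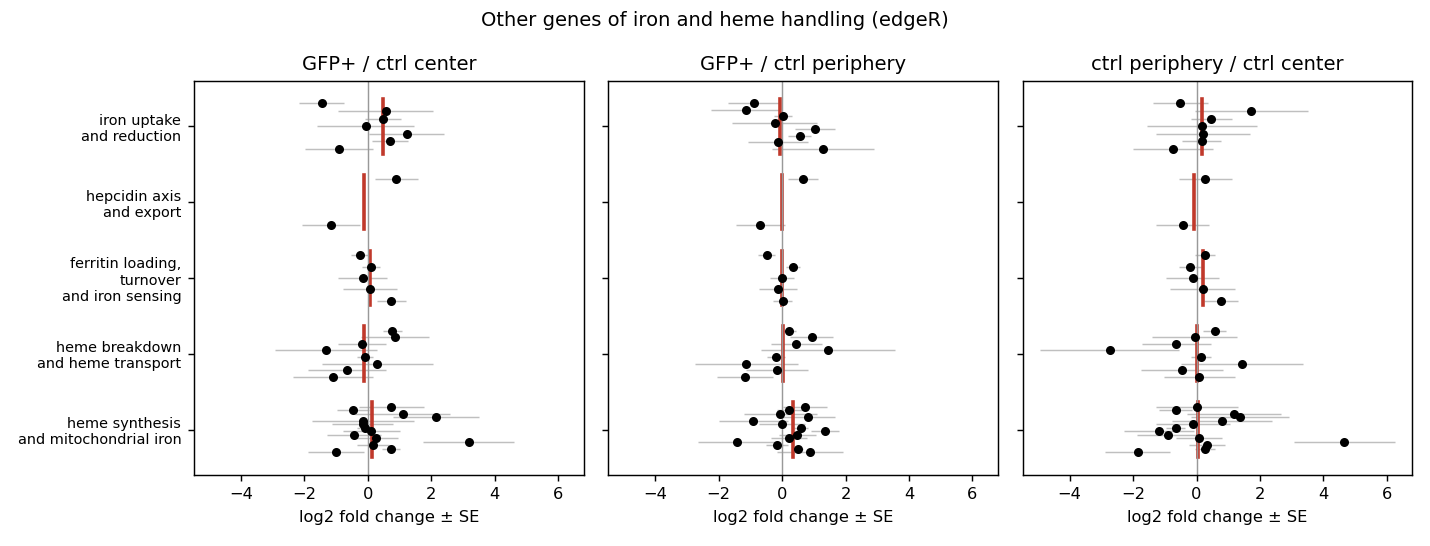
Log2 fold change ± SE (edgeR) of the tested genes of 5 lists in the 3 comparisons; points are genes and red bars are list medians. The point farthest to the right is Cpox at 4.66 in ctrl periphery against ctrl center, and the list medians lie between -0.13 and 0.48.

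Among the genes whose CPM followed Trf most closely over the 17 libraries were Nsun6 (Spearman's rho 0.91), Ctsd (0.91), Rab34 (0.89) and Creb3 (0.88), of 10660 genes that passed the filter over all 3 groups. These libraries share their depth and the mitochondrial share given above, so the values are a description without a test. Ctsd, the lysosomal protease cathepsin D, was the 1 gene of the 5 closest that was also among the 5 highest by Pearson's r of log2(CPM + 1), and its mean CPM was 4402 in GFP+, 2262 in ctrl periphery and 1956 in ctrl center. Of the members, Fth1 was the closest to Trf (rho 0.69) and Tfrc the farthest (rho -0.24). Ftl1 was at 0.18 and Cp at 0.34.

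The libraries held 9896118 to 22467079 counts. Genes with at least 10 counts numbered 9089 to 10231 in GFP+, 7966 to 10543 in ctrl periphery and 5392 to 10450 in ctrl center. The part of this difference in the low ctrl center values of Slc11a2, Cp and Cpox was not tested. Serpine3, the gene that carries the reporter, read 107 to 576 counts in each GFP+ library, 5 in 1 ctrl periphery library and 0 in all other controls, as the labels state. Of 9 RPE markers 8 were above 3 counts in each library, from 8.13 CPM upward for Mitf, with a summed level of 47950 to 98133 CPM. Best1 had at most 2 counts in any library; the annotated gene ends 76 bases from the end of Fth1 on the opposite strand, and whether its near-0 counts come from the cells or from the counting was not tested. Of the markers of other cells, red blood cell genes reached 13.7 CPM in sum, endothelial genes 14.9, fibroblast genes 2.03 and ciliary and iris epithelium genes 20.8. The median endothelial sum was 8.93 CPM in GFP+, 3.90 in ctrl periphery and 0.221 in ctrl center, the same order of groups as Cp. Of the endothelial genes, Flt1 had a mean of 5.17 CPM and Kdr of 2.92 CPM in GFP+. There Pecam1 exceeded 3 counts in 1 library, Cdh5 had at most 2 counts, and Vwf and Tek had 0. In the GFP+ libraries of mice 1, 2, 3, 4, 5 and 7 the endothelial sum was 8.58, 4.70, 9.29, 14.9, 0.141 and 13.4 CPM. The Cp counts of these libraries were 567, 159, 3933, 288, 411 and 1, in a different order by library. Whether Cp and the endothelial sum are related was not tested. The GFP+ library of mouse 3, which was highest in Cp, had the highest GFP+ sums of red blood cell (9.95 CPM), photoreceptor (164 CPM) and melanocyte genes (1595 CPM). Photoreceptor genes summed to 35.9 to 233 CPM. Of 10 macrophage genes 1 or 2 were above 3 counts in a library; they summed to 38.1 to 147 CPM, of which Csf1r gave 35.6 to 146, and C1qa, C1qb and Tyrobp were at 0 in each library. Melanocyte genes, which RPE in part shares, summed to 488 to 1595 CPM. The Müller glia list, which shares Rlbp1, Apoe and Clu with RPE, summed to 7917 to 18696 CPM. The part of these levels in the Cp and Trf values was not tested. Trf and the readthrough gene Gm20425 share 2108 exon bases on the same strand, so reads in those exons could be counted to either.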

How the data were processed

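The deposited table held whole-number estimated counts per gene symbol for 17 libraries; per the labels and the submitters' processing notes the authors used fastp and Salmon on GRCm38.p6, versions, annotation and strand setting not given in the sources used here. Libraries were single-end SMART-Seq. Counts were read with edgeR 4.0.16 in R 4.3.3: filterByExpr, TMM, glmQLFit and glmQLFTest on the libraries of the 2 groups. Benjamini-Hochberg adjustment ran over all genes tested, and SE is the absolute log2 fold change over the square root of F. CPM were scaled over all 17 libraries, so that they differ from shares of raw counts. DESeq2 1.42.0 was an alternative, beside other scalings, filters, covariates and each library left out. Fits were tested on simulated counts with 200 changed genes and the same spread set for every gene. That test does not cover the uneven spread of the members.

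The members and gene lists were chosen with earlier results of these data known. All 10 members are named; of each pathway list, genes called and those among the 2 highest and 2 lowest log2 fold changes of a comparison; Alad, Best1 and Csf1r, outside that rule, were chosen after their values were seen. The 5 genes most like Trf follow Spearman's rho. Some genes that these rules name are not reported here. Libraries with the same mouse number come from the same animal per the labels, so the numbers pair them; deviations of same-mouse libraries correlated at -0.02 to 0.09, with 0 pairs above 0.1. Mouse 1 was read as a pool of animals. No library was a duplicate of another (highest correlation of log2 counts 0.924 of 136 pairs). Exon lengths and overlaps came from GENCODE M21. P-values measure the spread between small cell pools.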

Additional observations from a re-analysis of the deposited data

Results flagged for a closer look

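Of 26 groups of libraries with a member above 3 counts, 5 had a library far from the others by Dixon's ratio; chance flags about 1 in 20. Cp stood out in each group: 175 CPM in the GFP+ library of mouse 3 against 28.9 in the next, 5.83 in the ctrl periphery library of mouse 7 against 0.794, and 0.505 in the ctrl center library of mouse 1 against 0. The last of these follows from the other 5 libraries being at 0 and rests on 6 counts, and the chance rate does not hold for groups with so many zeros. Steap3 read 9.34 CPM in the ctrl center library of mouse 1 against 3.08 in the next, and Ireb2 read 182 CPM in the ctrl center library of mouse 5 against 60.7. No explanation was tested for any of them.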

How the results depend on the processing

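Under 67 alternative settings over the 3 comparisons, a member was called in 1: DESeq2 in GFP+ against ctrl center called 1 member, Cp, which the edgeR filter had left out; these settings keep that filter elsewhere, and with it lifted, as below, Cp also passed in edgeR fits. Of 469 alternative log2 fold changes, 457 kept their sign and side of the limit and 12 changed sign, in 6 of 22 results; none of the values that turned was called. With the mouse as a replicate block, which uses the mice with both groups, the sign turned for Tfrc (0.33) and Ireb2 (0.73) in GFP+ against ctrl center and for Ireb2 in GFP+ against ctrl periphery (0.00859). The block called no member, and the median over all genes moved to 0.57 in GFP+ against ctrl center and 0.49 in ctrl periphery against ctrl center, beside 0.00 and 0.01; in the former it was -0.21 with no filter and -0.43 in DESeq2, both over more low genes. Without single libraries, Tfrc ranged from -0.50 to 0.0356 and Ireb2 from -0.64 to 0.99 in GFP+ against ctrl center, where the ctrl center library of mouse 5 turned both. In ctrl periphery against ctrl center Ireb2 ranged from -0.15 to 1.52, Trf from -0.0211 (without ctrl periphery of mouse 7) to 0.81, and Fth1 from -0.54 to 0.0110 (without ctrl periphery of mouse 5). The cause was not tested. Over all genes the 4, 4 and 0 calls became 206, 66 and 29 in DESeq2, and 56, 0 and 0 with the block; other settings gave 1 to 6, 0 to 5 and 0. Cp with no filter, added after seeing the data, gave log2 fold changes of 7.44 to 12.4 and adjusted p of 4.21e-06 to 0.196, under the limit in 3 of 17 alternatives: DESeq2, the run covariate and without the ctrl center library of mouse 1. The order of mean CPM per kb kept all 10 places with the longest transcript in each group, and Pearson's r shared 1 of the 5 genes most like Trf. With 10 to 15 cells in a pool, genes under the filter such as Steap3 and Slc40a1 could not be compared.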
